A study of Danio rerio with 6 samples.

Results

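The p53 pathway genes described here are mdm2, cdkn1a, ccng1, sesn1, phlda3, casp8, bbc3, gadd45aa and tp53inp1, taken as every row of the deposited table with 1 of these 9 symbols. That gave 10 of 32571 rows, because sesn1 stands on 2 rows with different gene IDs. RNA sequencing of pools of whole AB zebrafish embryos gave 6 groups, with 1 deposited value per gene in each group. The groups were control embryos at 2 hours post fertilisation (control 2 hpf), control embryos at 6 hpf, and 6 hpf embryos injected with a morpholino (miR-430 MO) that blocks the microRNA miR-430 or with CNOT7-DN, which the design text calls CNOT7 inhibition. Embryos injected with alpha-amanitin, which blocks RNA polymerase II, were taken at 6 hpf with a control of their own (control B). All groups share the strain, and the labels name no injection for either 6 hpf control.

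The transcription factor p53 is held at a low level by the ubiquitin ligase Mdm2 and accumulates after DNA damage and other stress. It then switches on genes that halt the cell cycle, restrain growth or start cell death, and it also raises mdm2, which closes a feedback loop. In zebrafish embryos, injected morpholinos are known to raise p53 target genes as a side effect in some cases, and embryos before the onset of their own transcription cannot mount a transcriptional p53 response. Values below are FPKM, in which fragment numbers are divided by transcript length and library size, so levels can be set side by side between genes. Differences are log2 ratios of FPKM + 1, and rows are counted as 2-fold apart on that scale; folds of single genes are ratios of FPKM itself. A gene is said to have risen or fallen only where the authors' deposited table gives it a q-value under 0.05. The series design states triplicates, but the table holds their joint value, so no value carries a standard deviation and the read depth behind it is unknown. Whole-embryo RNA cannot tell fewer cells that carry a transcript from less of it in each cell.

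The groups were first checked against marker genes. All 8 egg genes (such as buc and zar1l) were present in each group, with a summed level of 3561 FPKM at 2 hpf and 290.0 to 638 FPKM in the 6 hpf groups. Embryonic genes (8 symbols on 10 rows, such as tbx16 and krt4) summed to 3.83 FPKM at 2 hpf and 2.69 in amanitin, with 1 row at 0 in each, and to 2903 to 3655 FPKM in the other groups. The row of cnot7 stood at 12850.3 FPKM in CNOT7-DN and at 4.55 to 26.9 elsewhere, and no row measures the activity of miR-430. Control 6 hpf, the reference for miR-430 MO and CNOT7-DN and the later stage in the comparison with control 2 hpf, stood apart in the heat-shock gene hsp70l, at 22.1 FPKM against 1.52 in control B, 1.79 in miR-430 MO and 0.639 in CNOT7-DN.

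Feedback genes were the most abundant members. The p53 ubiquitin ligase gene mdm2 (ENSDARG00000033443, chromosome 4, 22061378 to 22071816 on Zv9) had a level of 112 FPKM at 2 hpf, 249 in control 6 hpf and 449 in control B, against 463 with miR-430 MO, 136 with CNOT7-DN and 39.6 with amanitin. Its highest levels were thus in miR-430 MO and in control B, which lay 1.03-fold apart, and its lowest in amanitin. Against control 6 hpf it rose in miR-430 MO (log2 ratio 0.89; q = 0.000589 in the authors' deposited table) and fell in CNOT7-DN (-0.86; q = 0.000996 in the same table). The cyclin G gene ccng1 (ENSDARG00000076667, chromosome 14, 23132060 to 23143178), which in mammals encodes a partner of Mdm2, had 492 FPKM at 2 hpf, 687 in control 6 hpf and 830 in control B, against 955 with miR-430 MO, 492 with CNOT7-DN and 941 with amanitin. It varied least, and unlike mdm2 it was about as high in amanitin as in miR-430 MO. It rose by 0.47 in miR-430 MO (q = 0.00592 in the authors' deposited table) and fell by 0.48 in CNOT7-DN (q = 0.00892 in that table).

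The growth arrest genes were almost absent from the early embryo. The gene of the cyclin-dependent kinase inhibitor cdkn1a (ENSDARG00000076554, chromosome 22, 577558 to 582981) had a level of 0.774 FPKM at 2 hpf, 26.9 in control 6 hpf and 38.3 in control B, against 76.5 with miR-430 MO, 9.71 with CNOT7-DN and 0.269 with amanitin. The stress-induced gene gadd45aa (ENSDARG00000043581, chromosome 2, 10071949 to 10075877) had a level of 0.292 FPKM at 2 hpf, 12.7 in control 6 hpf and 14.9 in control B, against 34.7 with miR-430 MO, 4.81 with CNOT7-DN and 0.134 with amanitin. Both genes thus had the same order of groups: miR-430 MO, control B, control 6 hpf, CNOT7-DN, 2 hpf and amanitin. In miR-430 MO cdkn1a rose 2.85-fold and gadd45aa 2.74-fold over control 6 hpf (q = 0.000589 for each in the authors' deposited table). In CNOT7-DN cdkn1a was 2.77-fold and gadd45aa 2.63-fold lower than in control 6 hpf (q = 0.000996 for each in the authors' deposited table).

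Another 3 symbols, on 4 rows, restrain growth or respond to stress. The main row of sesn1 (ENSDARG00000020693, chromosome 20, 32263285 to 32270038), a sestrin that restrains growth signalling through mTOR, had a level of 25.0 FPKM at 2 hpf, 15.2 in control 6 hpf and 18.6 in control B, against 102 with miR-430 MO, 8.21 with CNOT7-DN and 17.1 with amanitin. Here miR-430 MO stood alone: the other groups lay within 8.21 to 25.0 FPKM. Its rise, 6.74-fold over control 6 hpf (log2 ratio 2.68; q = 0.000589 in the authors' deposited table), was exceeded by 32 of 15611 genes, and it fell by 0.81 in CNOT7-DN (q = 0.000996 in that table). The second sesn1 row (ENSDARG00000093695, chromosome 20, 32191282 to 32192688), whose ID was not found in the reference list of names, was low and ran otherwise. It had a level of 7.13 FPKM at 2 hpf, 1.93 in control 6 hpf and 1.35 in control B, against 1.23 with miR-430 MO, 2.34 with CNOT7-DN and 4.73 with amanitin. It was the only member row that was not higher in miR-430 MO than in both controls (q = 0.286 against control 6 hpf in the authors' deposited table). Of 17225 genes that reached 1 FPKM in any group, 27.0% were higher in miR-430 MO than in both controls.

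The Akt repressor gene phlda3 (ENSDARG00000037804, chromosome 23, 5806308 to 5809109) had a level of 2.57 FPKM at 2 hpf, 27.1 in control 6 hpf and 35.1 in control B, against 123 with miR-430 MO, 10.4 with CNOT7-DN and 3.65 with amanitin. Its highest group was 3.50-fold above the next, control B. The gene tp53inp1 (ENSDARG00000028017, chromosome 16, 43226604 to 43235725), whose product in mammals promotes p53 activity and autophagy, had a level of 3.20 FPKM at 2 hpf, 9.18 in control 6 hpf and 15.7 in control B, against 52.3 with miR-430 MO, 6.70 with CNOT7-DN and 1.86 with amanitin. Against control 6 hpf, phlda3 rose by 2.14 and tp53inp1 by 2.39 on the log2 scale in miR-430 MO (q = 0.000589 for each in the authors' deposited table). In CNOT7-DN phlda3 fell by 1.30 (q = 0.000996 in the authors' deposited table), while tp53inp1 had a log2 ratio of -0.40 and missed the threshold (q = 0.127 in that table).

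The cell death genes differed from each other. The Puma gene bbc3 (ENSDARG00000069282, chromosome 15, 23098764 to 23115128), a BH3-only activator of mitochondrial apoptosis, had a level of 1.63 FPKM at 2 hpf, 9.06 in control 6 hpf and 13.4 in control B, against 32.04 with miR-430 MO, 2.94 with CNOT7-DN and 1.57 with amanitin. The gene casp8 (ENSDARG00000058325, chromosome 6, 12957804 to 12968646), the initiator caspase of death receptors, had a level of 29.2 FPKM at 2 hpf, 26.1 in control 6 hpf and 32.6 in control B, against 108 with miR-430 MO, 26.0 with CNOT7-DN and 39.5 with amanitin. As for the main sesn1 row, a single group stood out for casp8, while bbc3 spread over the groups, in the same order as cdkn1a. In miR-430 MO bbc3 rose 3.54-fold and casp8 4.14-fold over control 6 hpf (q = 0.000589 for each in the authors' deposited table). In CNOT7-DN bbc3 was 3.08-fold lower (q = 0.000996 in the authors' deposited table), whereas casp8 had a log2 ratio of -0.0054 (q = 0.988 in that table).

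**Figure D1:**
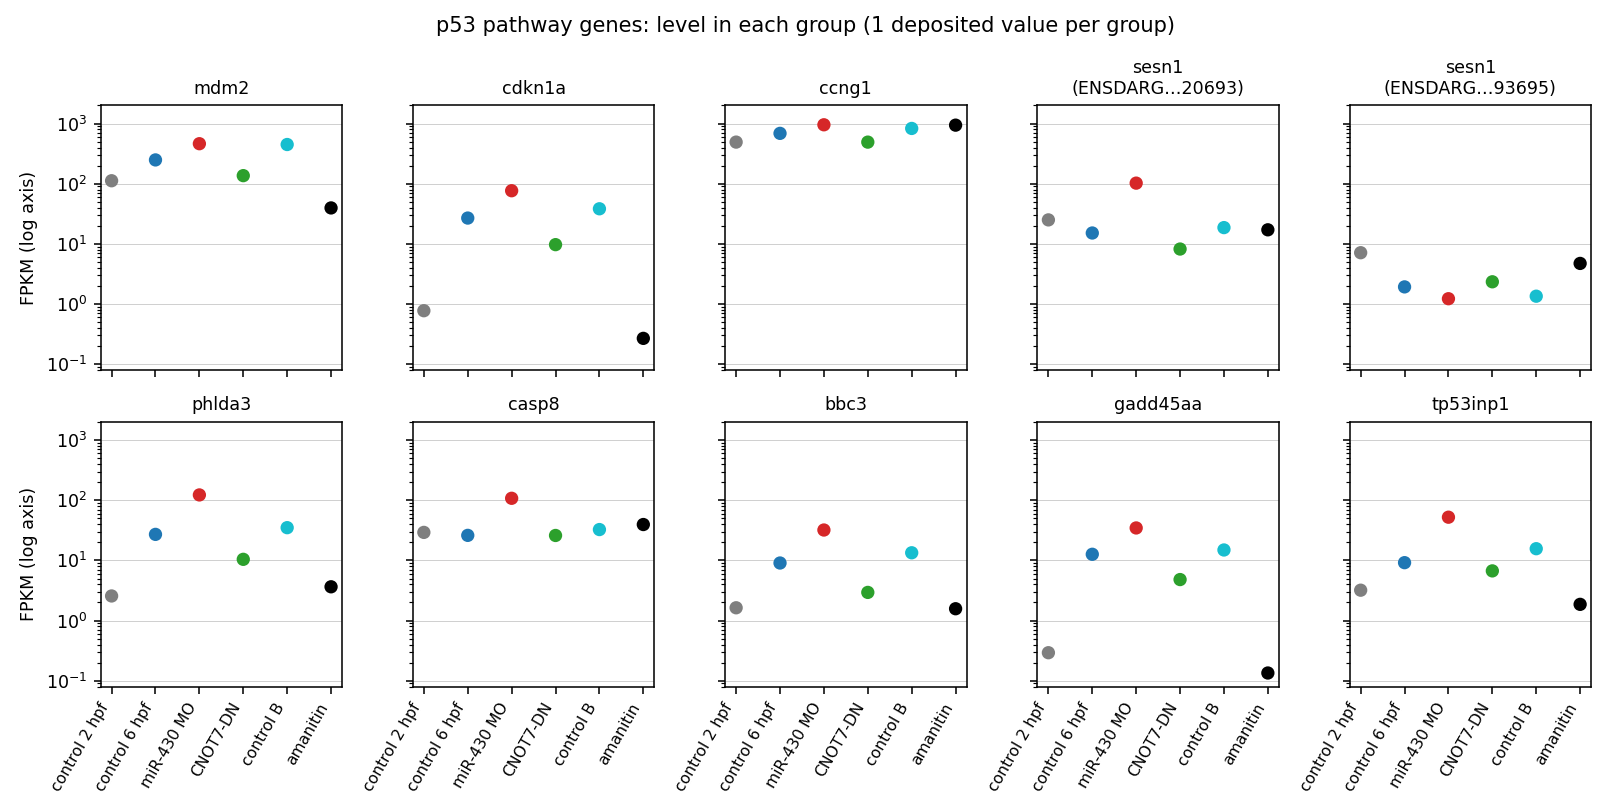
Level of each p53 pathway gene (10 rows of the table) in the 6 groups, in FPKM on a log axis; each point is the 1 deposited value of a group. The miR-430 MO point is the highest in 9 of the 10 panels, and the 2 hpf and amanitin points of cdkn1a and gadd45aa lie below 1 FPKM.

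Set together, 9 of the 10 rows rose in miR-430 MO against control 6 hpf and 0 fell, where 9.41% of all 14301 genes tested rose and 16.1% fell by the authors' deposited table. The median log2 ratio of the members was 1.60, beside -0.12 over all 15611 genes that reached 1 FPKM in 1 of the groups compared. At least 2-fold higher were 7 of the rows and lower 0, against 2.66% and 2.26% of all genes. The range ran from 0.47 for ccng1 to 2.68 for sesn1 among the rows that rose, and the most abundant members, ccng1 and mdm2, had the smallest rises. The morpholino group was the highest of the 6 groups for 9 of 10 member rows, as it was for 7.20% of 17225 genes that reached 1 FPKM in any group. Because the members were chosen with earlier results of these data known, their counts here and below are no test against all genes.

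In CNOT7-DN 7 of the 10 rows fell against control 6 hpf and 0 rose, where 3.996% of all 14438 genes tested fell and 10.1% rose in the authors' deposited table. The members' median log2 ratio was -0.84, beside 0.037 over all 15626 genes considered. At least 2-fold lower were cdkn1a, bbc3, phlda3 and gadd45aa, which makes 4 rows against 1.26% of all genes, and 0 rows were 2-fold higher, against 1.51%. Of the rows that fell, cdkn1a was the lowest at -1.38 with the pseudocount of 1, and 84 genes lay lower. That order rests on the pseudocount: with 0.1 in its place bbc3 was at -1.59 and cdkn1a at -1.46. The rows without a call were casp8, tp53inp1 and the second sesn1 row.

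These comparisons use the same control 6 hpf, so their ratios are not independent. The injected groups can also be set side by side without any control, which the table does not test. The level in miR-430 MO was 12.5-fold that in CNOT7-DN for the main sesn1 row, 11.8-fold for phlda3, 10.9-fold for bbc3, 7.88-fold for cdkn1a, 7.81-fold for tp53inp1 and 7.21-fold for gadd45aa. It was 4.15-fold for casp8, 3.40-fold for mdm2 and 1.94-fold for ccng1. The second sesn1 row ran the other way, at 0.523-fold. Of the 9 rows that were higher in miR-430 MO, the abundant feedback genes mdm2 and ccng1 thus differed least.

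**Figure D2:**
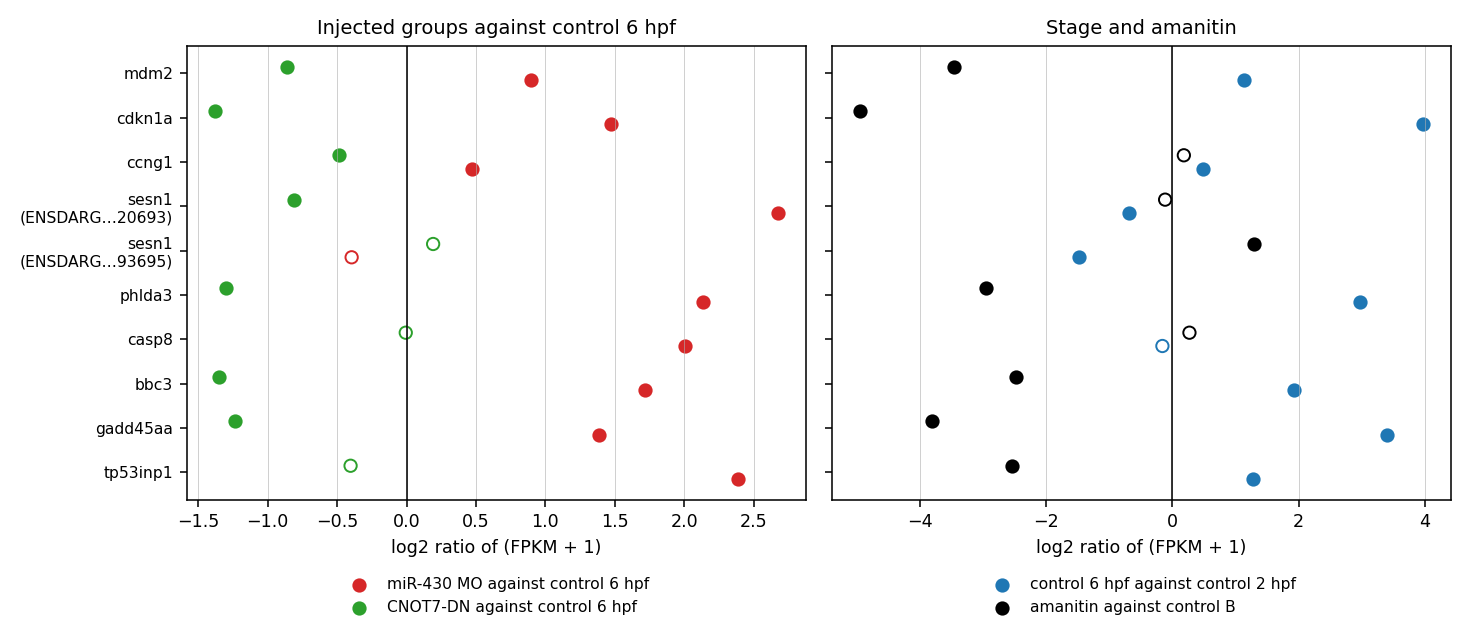
Log2 ratio of (FPKM + 1) of each member row in the injected groups against control 6 hpf (left) and for control 6 hpf against control 2 hpf and amanitin against control B (right); filled points have q under 0.05 in the authors' deposited table, open points do not. On the left 9 points of miR-430 MO lie above 0 and 7 filled points of CNOT7-DN below it; on the right 6 rows fell in amanitin.

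Control B allows a second look at the injected groups, though that pair was not tested. Between the controls themselves, 9 of 10 member rows were higher in control B, by a median log2 ratio of 0.33 beside -0.044 over all 15826 genes considered. None of the members was 2-fold apart (0 of 10, against 3.91% of all genes). The largest gaps were 0.85 for mdm2 and 0.71 for tp53inp1. Set against control B, miR-430 MO was higher by 2.39 for the main sesn1 row, 1.78 for phlda3, 1.70 for casp8, 1.68 for tp53inp1, 1.20 for bbc3, 1.16 for gadd45aa and 0.98 for cdkn1a. For ccng1 the ratio was 0.20, beside 0.47 against control 6 hpf, and for mdm2 0.045, beside 0.89. The rise of mdm2 in miR-430 MO, and the size of that of ccng1, thus rest on the choice of control. CNOT7-DN was below both controls for 9 of 10 member rows, as were 32.7% of all genes. Its log2 ratios to control B were -1.88 for cdkn1a, -1.87 for bbc3, -1.71 for mdm2, -1.66 for phlda3, -1.45 for gadd45aa and -1.11 for tp53inp1. They were -1.09 for the main sesn1 row, -0.75 for ccng1 and -0.32 for casp8, and 0.51 for the second sesn1 row, the row that ran the other way.

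Other markers also differed among these groups, and their part in the members' values was not tested. The summed level of the 8 egg genes was 403 and 295 FPKM in controls 6 hpf and B, against 290.0 with miR-430 MO and 638 with CNOT7-DN. Embryonic genes summed to 3523, 3655, 3042 and 2903 FPKM in the same order. Of 8 stress genes, 6 were found, and their sums were 253, 223, 175 and 251 FPKM in that order. Most of each sum was hspa5, at 167, 139, 116 and 203 FPKM. Against control 6 hpf, 4 of 8 tested embryonic genes fell in miR-430 MO and 5 of 8 in CNOT7-DN, by the authors' deposited table. In both groups 0 of them rose. Over all genes tested, 16.1% fell in miR-430 MO and 3.996% in CNOT7-DN. Outer layer markers, which include krt4, fell on 1 of 5 tested rows in miR-430 MO and 3 of 5 in CNOT7-DN. Yolk syncytial layer markers had the same counts. Among stress genes, hsp70l fell in both injected groups, hspa5 in miR-430 MO and atf4b1 in CNOT7-DN, by the authors' deposited table. Only 5 stress genes were tested, and 0 rose in either injected group in that table. Over all genes tested, 9.41% rose in miR-430 MO and 10.1% in CNOT7-DN, so a count of 0 among 5 says little. The falls of hsp70l are set against a high control 6 hpf value, 22.1 FPKM. It was 1.52 FPKM in control B, 1.79 in miR-430 MO and 0.639 in CNOT7-DN.

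**Figure D3:**
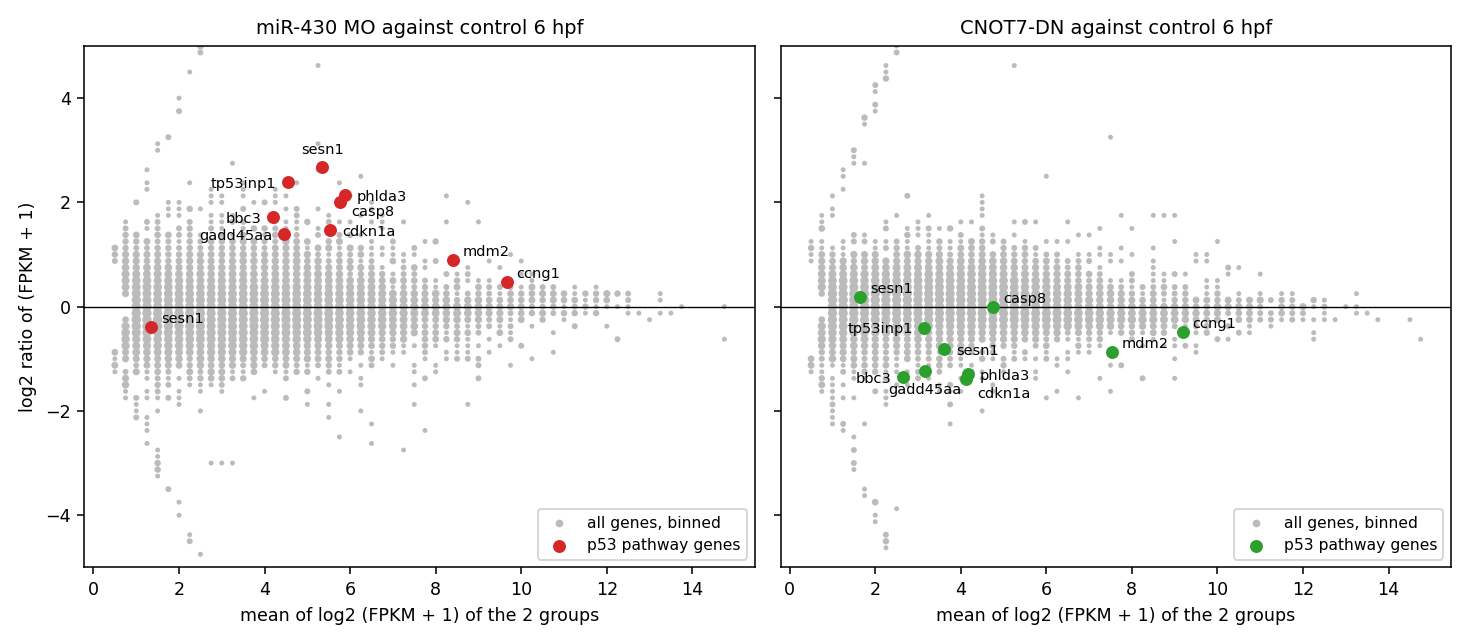
Log2 ratio of (FPKM + 1) against control 6 hpf, plotted over the mean level of both groups, for miR-430 MO (left) and CNOT7-DN (right); grey points are bins of genes, larger where a bin holds more genes, and coloured points are the member rows. The axis ends at 5, which leaves out 29 genes on the left and 23 on the right. The coloured points of the main sesn1 row, tp53inp1, phlda3 and casp8 lie above 2.00 on the left. The second sesn1 row, also labelled sesn1, lies at -0.395 there.

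From 2 to 6 hpf, 7 member rows rose and 2 fell, where 20.8% of all 15504 genes tested rose and 51.7% fell by the authors' deposited table. The median log2 ratio was 1.21, beside -0.47 over all 16333 genes considered, and 6 rows were at least 2-fold higher and 1 lower, against 18.6% and 29.9% of those genes. The largest rises were 3.97 for cdkn1a (q = 0.0001 in the authors' deposited table), 3.40 for gadd45aa (q = 0.00432 in that table) and 2.98 for phlda3 (q = 0.0001 there). Their sizes and order depend on the pseudocount, as cdkn1a and gadd45aa were below 1 FPKM at 2 hpf. With a pseudocount of 0.1 in place of 1 the rises were 4.95, 5.02 and 3.35 in that order, and with 5 they were 2.46, 1.74 and 2.09. The members mdm2, bbc3 and tp53inp1 rose by 1.14 to 1.93. Both sesn1 rows fell, by 0.69 and 1.47, and casp8 had a log2 ratio of -0.16 (q = 0.266 in the authors' deposited table). These values depend on the scaling: the rows 2-fold higher and lower were 4 and 2 after rescaling to equal sums, and 3 and 3 with the median ratio of ribosomal protein genes set to 0. The rise of ccng1, 0.48, turned to -0.028 and -0.48 under these scalings. The log2 ratio of mdm2 became 0.64 and 0.18, and that of tp53inp1 0.87 and 0.32. For cdkn1a, gadd45aa and phlda3 it stayed at 2.02 or more under both. The third scaling, centred on the median gene, left the counts at 6 and 1 and gave larger rises. There ccng1 had a log2 ratio of 0.95, mdm2 1.61 and tp53inp1 1.74. Markers of tissues that form by 6 hpf moved too, and their part was not tested: 7 rows of outer layer markers summed to 10.6 FPKM at 2 hpf, 17.5 with amanitin and 3158 to 3884 elsewhere. The 4 markers of the yolk syncytial layer summed to 1.16, 2.27 and 1435 to 2584 FPKM in the same order.

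Amanitin divided the members. Against control B, 6 rows fell and 1 rose, where 29.2% of all 15235 genes tested fell and 41.6% rose in the authors' deposited table. At least 2-fold lower were 6 rows and higher 1, against 28.7% and 20.5% of all 16114 genes considered. The rows that fell were mdm2, cdkn1a, phlda3, bbc3, gadd45aa and tp53inp1. What was left of the control B level in amanitin was 0.701% for cdkn1a, 0.901% for gadd45aa, 8.83% for mdm2, 10.4% for phlda3, 11.7% for bbc3 and 11.9% for tp53inp1. In log2 terms cdkn1a fell by 4.95 (q = 0.000671 in the authors' deposited table), gadd45aa by 3.81 (q = 0.0192 in that table) and mdm2 by 3.47 (q = 0.000105 there).

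The members without a fall in amanitin were ccng1, casp8 and both sesn1 rows. At 2 hpf ccng1 stood at 492 FPKM, casp8 at 29.2, the main sesn1 row at 25.0 and the second at 7.13. The 2 hpf level did not by itself divide the members, as mdm2, at 112 FPKM there, fell. In amanitin ccng1 stood at 113% of control B (q = 0.227 in the authors' deposited table), casp8 at 121% (q = 0.0629 in that table) and the main sesn1 row at 91.9% (q = 0.402 there). Centred on ribosomal protein genes, their log2 ratios to control B were 1.27, 1.36 and 0.98 in that order, so that these levels are near those of control B only on the deposited scale, after rescaling to equal sums (0.23 to 0.63) and when centred on the median gene (-0.24 to 0.15). The second sesn1 row rose by 1.29 (q = 0.000396 in the authors' deposited table). Set against control 2 hpf, amanitin embryos had less mdm2 (log2 ratio -1.48; q = 0.000123 in the authors' deposited table) and more ccng1 (0.93, with the same q in that table). The other calls there were a rise of casp8 by 0.42 and falls of the main sesn1 row by 0.52 and of tp53inp1 by 0.55 (q = 0.00513, 0.000766 and 0.0155 in the authors' deposited table). In that comparison 2 rows rose, 3 fell and 2, cdkn1a and gadd45aa, were not tested, where 22.2% of 13957 genes rose and 44.1% fell by the authors' deposited table. Of the rows 0 were 2-fold higher and 1 was 2-fold lower, against 5.50% and 28.3% of all 14462 genes considered.

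Likeness between members was measured as the distance of their log2 levels over the 6 groups, each centred on its own mean. The closest pair was tp53inp1 and bbc3, 0.84 apart, followed by phlda3 and gadd45aa at 0.96 and gadd45aa and cdkn1a at 0.97. The main sesn1 row was closest to casp8 (1.25), and casp8 was nearly as close to ccng1 (1.30). Over all 12647 genes with a plain name on 1 row, the genes nearest to mdm2 were ccng2 (0.57), arrdc3b (0.75), rnd3a (0.79), hsd17b2 (0.80) and fgf24 (0.80). The cyclin G paralog ccng2 had a level of 15.8 FPKM at 2 hpf, 34.9 in control 6 hpf and 63.7 in control B, against 50.8 with miR-430 MO, 19.4 with CNOT7-DN and 2.98 with amanitin. With 6 groups of 1 value each, such distances describe these libraries only.

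The wider pathway was described with 5 lists of p53 family genes and regulators, damage kinases, arrest genes, apoptosis genes and repair or metabolic genes, 148 rows in all without the members. In miR-430 MO 18 of 122 tested rows rose (14.8%, beside 9.41% of all genes) and 20 fell (16.4%, beside 16.1%) by the authors' deposited table. In CNOT7-DN 19 of 122 rose (15.6%, beside 10.1%) and 9 fell (7.38%, beside 3.996%) in that table. The members' own counts were 9 of 10 risen in miR-430 MO and 7 of 10 fallen in CNOT7-DN. Members and lists were chosen with earlier results of these data known, so the contrast between them is no test. From 2 to 6 hpf 24 of 125 list rows rose (19.2%, beside 20.8%) and 81 fell (64.8%, beside 51.7%), by the authors' deposited table. With amanitin against control B 51 of 124 rose (41.1%, beside 41.6%) and 49 fell (39.5%, beside 29.2%) in that table.

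Among the family genes and regulators, tp73 rose from 0.837 to 3.68 FPKM and tp63 from 1.57 to 2.95 in miR-430 MO by the authors' deposited table. In control B tp73 stood at 1.19 FPKM and tp63 at 2.23. Where 16.1% of all genes tested fell in miR-430 MO, this list of 22 rows had 5 falls in that table. These were the ubiquitin ligase genes rfwd2 (44.9 to 22.7 FPKM) and rchy1 (14.4 to 8.06), the phosphatase gene ppm1db (23.8 to 14.8), diexf (41.2 to 24.9) and the acetyltransferase gene htatip (44.6 to 34.5). In control B these genes stood at 31.5, 8.59, 24.2, 33.4 and 45.1 FPKM in that order. The fall of rchy1 thus rests on the choice of control. In CNOT7-DN rfwd2 rose to 72.1 FPKM and TP53BP2 (2 of 2) from 2.47 to 3.75 by the authors' deposited table.

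The paralog of mdm2, mdm4, whose product also restrains p53, ran opposite to mdm2 with stage and amanitin. It had a level of 55.9 FPKM at 2 hpf, 11.3 in control 6 hpf and 11.8 in control B, against 14.6 with miR-430 MO, 12.8 with CNOT7-DN and 69.9 with amanitin. It fell by 2.21 from 2 to 6 hpf (q = 0.0001 in the authors' deposited table) and rose by 2.47 in amanitin against control B (q = 0.000105 in that table). The acetyltransferase gene KAT5 (1 of 2) fell in amanitin from 30.8 to 6.88 FPKM by the authors' deposited table. No call was made in either injected group for that gene, mdm4, tp53bp2, ppm1da, ing1, ing2, rpl5a, rpl11, trim24, usp7, TP53BP1, wrap53 or tp53rk.

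Of 19 tested rows of kinases and sensors that signal DNA damage to p53, 18 fell from 2 to 6 hpf, where 51.7% of all genes fell, by the authors' deposited table. The histone gene h2afx (738 to 3483 FPKM) was the 1 that rose in that table. In miR-430 MO 5 rows rose and 3 fell in that table, where 9.41% of all genes rose and 16.1% fell. The kinase gene atr rose from 3.46 to 11.4 FPKM and 1 of the 2 rows of atm from 2.94 to 5.98 (q = 0.000589 for each in the authors' deposited table), and the other atm row rose from 4.76 to 7.07 (q = 0.0362 in that table). In CNOT7-DN 4 rose and 0 fell, where 10.1% of all genes rose and 3.996% fell in that table. Among those that rose were chek2 (24.7 to 38.4 FPKM) and CLSPN (31.3 to 52.9), with q = 0.000996 for each in that table.

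Of 13 arrest genes tested in miR-430 MO, 4 rose and 2 fell, by the authors' deposited table. Over all genes 9.41% rose and 16.1% fell there. The antiproliferative gene btg1 rose from 41.2 to 140.4 FPKM and the repressor e2f7 from 36.6 to 64.4. In CNOT7-DN 1 rose and 3 fell in that table, where 10.1% of all genes rose and 3.996% fell. Among those that fell were ccng2 (34.9 to 19.4 FPKM) and gadd45bb (170 to 117), a paralog of gadd45aa. With amanitin 8 of 12 fell and 3 rose by the authors' deposited table, where 29.2% of all genes fell and 41.6% rose. In amanitin gadd45bb fell from 130.0 to 0.406 FPKM.

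Of 42 tested rows of apoptosis genes other than bbc3 and casp8, 3 rose in miR-430 MO and 8 fell by the authors' deposited table, where 9.41% of all genes rose and 16.1% fell. Those that rose were the death receptor gene hdr (11.2 to 21.9 FPKM), TP53INP2 (6.85 to 15.0) and baxa (32.6 to 46.7), a pore-forming Bcl-2 family member. In CNOT7-DN 10 rose and 1 fell in that table, where 10.1% of all genes rose and 3.996% fell. At the top were bokb (13.1 to 37.9 FPKM) and tp53i11b (9.48 to 22.2), and hdr rose there too (to 20.1 FPKM). The Noxa gene pmaip1 had 113 and 250.3 FPKM in controls 6 hpf and B, against 175 with miR-430 MO and 89.7 with CNOT7-DN, with no call in either injected group.

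Among repair and metabolic genes, 3 of 26 tested rows rose and 2 fell in miR-430 MO by the authors' deposited table. Over all genes 9.41% rose and 16.1% fell in that group. The transcription factor gene foxo3b rose from 21.1 to 110.2 FPKM and fell to 6.74 in CNOT7-DN, the largest change of this list in either group. The sestrin gene sesn3, a paralog of sesn1, had a level of 1.06 FPKM at 2 hpf, 190 in control 6 hpf and 246 in control B, against 362 with miR-430 MO, 112 with CNOT7-DN and 1.78 with amanitin. It rose in miR-430 MO and fell in CNOT7-DN by the authors' deposited table, while the other sestrin gene, sesn2, had no call in miR-430 MO (12.5 and 11.1 FPKM) and rose in CNOT7-DN (to 21.1) in that table. The repair gene ddb2 fell in miR-430 MO from 16.1 to 7.94 FPKM, and the autophagy gene dram1 fell in CNOT7-DN from 21.5 to 9.80, by the authors' deposited table. Of 27 rows tested in CNOT7-DN, 2 rose and 4 fell in that table, where 10.1% of all genes rose and 3.996% fell.

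**Figure D4:**
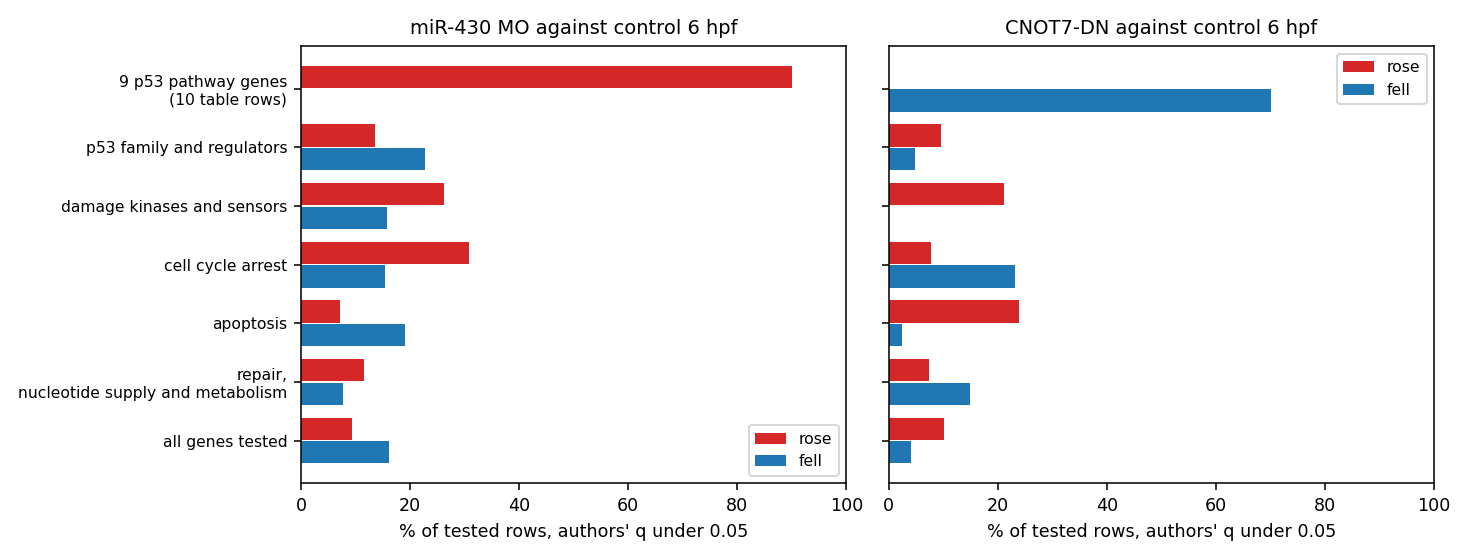
Share of tested rows that rose (red) or fell (blue) in miR-430 MO (left) and CNOT7-DN (right) against control 6 hpf, with q under 0.05 in the authors' deposited table, for the member rows, the 5 pathway lists and all genes. The red bar of the members stands for 9 of 10 rows on the left and the blue bar for 7 of 10 on the right; for all genes the matching bars are 9.41% and 3.996%.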

How the data were processed

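Per the labels' protocols, RNA was pooled from whole embryos, depleted of ribosomal RNA and made into stranded libraries. The submitters' processing notes name TopHat 1.4.0, Cuffdiff 2.1.1 and the build Zv9, or danRer7. The deposited table gives the authors' FPKM of both groups in 5 comparisons, 1 value per group, and the authors' p-value and q-value, per the file headers. The annotation release, strand setting and library scaling were not given in the sources used here. No source says that the triplicates came from different clutches, so q-values may measure technical spread only.

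From the deposited FPKM, log2 ratios were computed with a pseudocount of 1, which understates changes of low genes. Each comparison used the FPKM deposited with it. Genes that reached 1 FPKM in 1 of the groups compared were considered, and genes with p under 1 counted as tested. No test was computed here. Loci are as the table gives them; the base of their starts was not checked, and no member row overlaps another row of the table. The IDs of 9 of 10 member rows were found in the reference list of names. List genes were found by symbol or by that list of names.

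The members and lists were chosen with earlier results of these data known. Named were all member rows, all regulator rows but 1 that is not reported here, up to 2 list genes per comparison that passed q 0.05 and reached 5 FPKM (largest ratios), and the 5 genes nearest to mdm2. Named after their values were seen were baxa, pmaip1, the second atm row, and sesn2, sesn3 and hdr where the rule did not name them. Alternatives were pseudocounts of 0.1 and 5, other FPKM minimums, folds of 1.5 and 4, q under 0.01, 3 scalings and the other 6 hpf control. The computation of ratios and 2-fold counts was tested with known fold changes put into the control 6 hpf FPKM. Python 3.11.15, numpy 2.4.6, pandas 2.3.3 and matplotlib 3.10.9 were used.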

Additional observations from a re-analysis of the deposited data

How the results depend on the processing

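At 4-fold in place of 2-fold, the counts of member rows were 3 in place of 7 from 2 to 6 hpf, 4 in place of 7 in miR-430 MO, 0 in place of 4 in CNOT7-DN and 0 in place of 1 for amanitin against control 2 hpf. At 1.5-fold the last became 2, as it did when centred on the median gene, and 2 rows lay apart between the controls in place of 0. In CNOT7-DN the count of 4 was 2 with a pseudocount of 5 and 7 with control B as the control. With the authors' q and a 2-fold size together, the calls were 4 in place of 7 in CNOT7-DN and 1 in place of 5 for amanitin against control 2 hpf. The other 57 recomputed counts stayed within 1.5 times as totals of both directions. Within these totals, the rows 2-fold higher and lower from 2 to 6 hpf moved from 6 and 1 to 4 and 2 (equal sums) and to 3 and 3 (ribosomal protein genes), and for amanitin against control B from 1 and 6 to 3 and 6 (ribosomal protein genes) or to 0 and 6 (pseudocount 5, minimum of 5 FPKM, 4-fold or control 6 hpf as the control). Of the log2 ratios of called members, that of ccng1 from 2 to 6 hpf changed sign, to -0.028 after rescaling to equal sums and to -0.48 when centred on ribosomal protein genes. The medians over all genes and over 76 ribosomal protein genes lay at -0.47 and 0.96 there, and at 0.12 and -1.09 (75 ribosomal protein genes) for amanitin against control B.

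No paired analysis was possible because the table holds 1 value per group, which also leaves no replicate to leave out. The planned search of promoters for the p53 response element was not run. Read depth is unknown, so the precision of members near 0 FPKM, such as cdkn1a and gadd45aa in amanitin, cannot be given.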
